A study of Homo sapiens with 14 samples.

Results

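The MAF and WWOX locus is the stretch of chromosome 16 that holds the transcription factor gene MAF and the very long gene WWOX, with 100 kb on the outer side of each gene and all of the space between them, chr16:77999400-79700737 in the hg38 build, 1.70 Mb in all. Every reference peak in that stretch was taken, 36 of the 72802 peaks of the MM.1S list and 36 of the 79969 peaks of the RPMI8226 list, or 72 of 152771 together. The peaks come from Omni-ATAC, which tags open chromatin with a transposase, in 14 libraries of 2 established human multiple myeloma (MM) cell lines. MM.1S had 3 libraries from monoculture (MONO), 3 from the upper transwell (TSW), where cells shared medium with the human bone marrow stromal line HS5 but did not touch it, and 3 from the lower chamber (CO), where they did touch it. RPMI8226 had 1 MONO, 2 TSW and 2 CO libraries. Each line has 1 list that pools its culture conditions. Peaks found in 3 or more libraries entered the list, and the whole number given beside it was read as its support, the number of libraries with the peak, from 3 to 9 in MM.1S and from 3 to 5 in RPMI8226. The files hold no read counts and no values for a single library, so MONO, TSW and CO could not be compared, and no replicate test between the lines was possible. The study lists read totals for each library, unequal within MM.1S, but these were not used here, and their part in support was not tested. Intervals given beside shares below are 95% Wilson intervals over peaks, which cover counting error only, since neighbouring peaks are not independent.

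MAF encodes c-MAF, a basic leucine zipper transcription factor related to the AP-1 proteins, and it binds DNA at elements that extend an AP-1 or CRE core. In MM, MAF is one of the genes that immunoglobulin enhancers activate after chromosomal translocation, and CCND2, ITGB7 and CCR1 are described as its targets. WWOX encodes a WW domain oxidoreductase and spans a common fragile site, a stretch that breaks under replication stress, and translocation breakpoints on the WWOX side of MAF often fall inside it. Both lines are described with rearrangements that join the MAF region to immunoglobulin genes, the heavy chain locus in MM.1S and the lambda light chain locus in RPMI8226. Breakpoints and copy number were not analysed here, so all positions are those of the unrearranged reference.

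WWOX (ENSG00000186153.19) runs rightward from chr16:78099400-79212667, 1113 kb in 9 exons, and its canonical start site is at position 78099654. MAF (ENSG00000178573.7) lies to its right at chr16:79585843-79600737, 14.9 kb with 2 exons in the canonical transcript, and runs leftward from a start site at 79600737. MAF is therefore transcribed toward WWOX, and positions to the right of its start are upstream of it. The promoter sequences of both genes are shown because a peak of each line covers each start site. They are the RefSeq windows of GRCh38.p14, 250 bases before to 50 after the start, read in the direction of transcription, and both members had an entry. Capitals mark matches on either strand to the TATA box letters TATAAA, to the box named CCAAT for its letters, to the GC box letters GGGCGG and to the CRE letters TGACGTCA.
WWOX promoter, plus strand, chr16:78099404-78099703: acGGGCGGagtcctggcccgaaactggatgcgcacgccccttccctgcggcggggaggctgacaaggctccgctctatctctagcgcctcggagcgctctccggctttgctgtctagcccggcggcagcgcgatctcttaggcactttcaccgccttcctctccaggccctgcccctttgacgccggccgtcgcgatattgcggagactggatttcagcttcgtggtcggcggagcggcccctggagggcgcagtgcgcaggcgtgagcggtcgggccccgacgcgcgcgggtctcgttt
MAF promoter, minus strand, chr16:79600688-79600987: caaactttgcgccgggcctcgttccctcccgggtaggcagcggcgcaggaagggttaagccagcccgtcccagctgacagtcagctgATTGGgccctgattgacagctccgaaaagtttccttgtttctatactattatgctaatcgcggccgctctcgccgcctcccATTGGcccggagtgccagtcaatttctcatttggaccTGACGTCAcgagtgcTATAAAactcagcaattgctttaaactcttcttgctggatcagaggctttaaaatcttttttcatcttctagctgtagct

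The promoters differed in their letters. The MAF window had a TATA match 30 to 25 bases before the start, which 11.5% of 35116 RefSeq promoter windows hold anywhere, a CRE match 45 to 38 bases before it (1.85% of windows), and 2 CCAAT matches on the opposite strand (34.6%). CRE is the element bound by CREB and ATF proteins and the core of 1 class of MAF elements. The WWOX window had 1 GC box match, as did 45.0% of windows at one or more places, and no TATA, CCAAT or CRE match. GC content was 69.0% with 38 CpG dinucleotides at WWOX and 51.7% with 16 at MAF. Neither window held the AP-1 letters TGANTCA (7.71% of windows) or the E-box letters CACCTG (20.6%).

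Peak windows are shown for the elements described below, as the 200 bases at the centre of each peak on the plus strand of hg38. The first 3 are from pairs of overlapping peaks that were present in every library of both lines. These 3 windows are the centres of the MM.1S peaks. The other 2 hold a match to letters searched for a MAF recognition element (MARE), which need not be a complete element. Capitals mark AP-1 (TGANTCA), MARE of the AP-1 type (TGCTGANTC), RUNX (TGTGGTT), ETS-IRF (GGAANNGAA) and E-box (CACCTG) matches on either strand. The MARE and AP-1 letters overlap in TGANTC, and the MM.1S window with the MARE match held no full AP-1 match.
Shared element upstream of MAF, 2 AP-1 matches and 1 RUNX match, chr16:79628579-79628778: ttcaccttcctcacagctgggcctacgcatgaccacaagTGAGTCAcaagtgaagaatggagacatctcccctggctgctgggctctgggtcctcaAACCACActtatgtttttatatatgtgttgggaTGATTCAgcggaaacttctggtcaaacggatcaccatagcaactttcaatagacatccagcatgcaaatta
Shared element of WWOX intron 8, 3 E-box matches, chr16:79008757-79008956: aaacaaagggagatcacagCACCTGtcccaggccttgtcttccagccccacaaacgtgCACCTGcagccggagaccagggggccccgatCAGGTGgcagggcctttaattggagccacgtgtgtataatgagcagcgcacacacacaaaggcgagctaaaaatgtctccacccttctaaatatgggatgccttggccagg
Shared element of the space between, ETS-IRF and E-box matches, chr16:79287180-79287379: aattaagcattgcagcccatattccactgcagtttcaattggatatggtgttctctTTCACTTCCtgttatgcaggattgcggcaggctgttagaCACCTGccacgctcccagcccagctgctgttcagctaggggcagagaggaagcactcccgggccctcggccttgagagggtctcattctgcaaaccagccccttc
RPMI8226-only peak of WWOX intron 8, MARE, AP-1 and E-box matches, chr16:78564097-78564296: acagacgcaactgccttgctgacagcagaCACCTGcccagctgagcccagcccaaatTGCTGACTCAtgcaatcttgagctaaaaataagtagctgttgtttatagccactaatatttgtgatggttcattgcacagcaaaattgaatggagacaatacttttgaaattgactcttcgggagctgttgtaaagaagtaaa
MM.1S-only peak of WWOX intron 8, MARE match, chr16:78762342-78762541: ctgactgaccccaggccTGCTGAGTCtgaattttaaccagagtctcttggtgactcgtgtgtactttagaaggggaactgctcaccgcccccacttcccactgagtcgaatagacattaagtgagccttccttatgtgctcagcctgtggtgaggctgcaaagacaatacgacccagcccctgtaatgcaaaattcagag

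The start of WWOX was open in every library of both lines. The MM.1S peak, chr16:78099258-78100221, was 964 bp wide with a support of 9 of 9, and the RPMI8226 peak, chr16:78099245-78100342, was 1098 bp wide with a support of 5 of 5. The whole MM.1S peak lay inside the RPMI8226 one, and each covered 12 of the 15 annotated WWOX start sites, exon 1 included. In width the peaks ranked at the 84.0 percentile of the MM.1S list and the 96.9 percentile of the RPMI8226 list. They were the only promoter peaks of WWOX, a promoter peak being one that lies within 2500 bp of any annotated start site. Of all 20007 protein-coding genes, 76.8% had such a peak in MM.1S and 71.9% in RPMI8226, and 69.3% and 66.6% had one present in every library.

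Within the WWOX body, peaks were concentrated in intron 8, which at 779 kb makes up most of the gene. It held 20 of the 22 MM.1S peaks and 14 of the 16 RPMI8226 peaks of the body. Intron 5, of 223 kb, held 1 peak in each list, which overlapped each other, although the MM.1S peak had a support of only 3 of 9 and was 158 bp wide. The remaining peak of each list was the one at the start, and no other intron held any. The widest stretch of the locus without a peak in either list, chr16:78235538-78564023, covered 328 kb from intron 5 into intron 8, and in MM.1S the empty stretch was 404 kb, to position 78639780.

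The 2 lines differed most in a stretch of intron 8 that lies 600 to 700 kb from the WWOX start, chr16:78699400-78799399, a 100 kb bin singled out after its values were seen. MM.1S had 13 peaks there and RPMI8226 had 2. The MM.1S peaks spanned 67.1 kb from 78729631 to 78796701 and were 206 to 1326 bp wide. Both RPMI8226 peaks overlapped MM.1S peaks, at positions 78742395 and 78770488 in MM.1S, each with a support of 9 of 9, and had supports of 5 and 4 of 5. The other 11 MM.1S peaks had no counterpart. None of these 11 was present in every library, 3 had the minimum support of 3, and the median support of all 13 was 7. Their supports ranged from 3 to 8 of 9.

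The MM.1S-only peaks of that stretch fell into 3 runs, a run being consecutive peaks of 1 list without an overlap in the other. The longest held 7 peaks over 24.9 kb, chr16:78743695-78768563, with supports of 3 to 8 and widths of 206 to 695 bp. A run of 3 peaks, chr16:78729631-78738907, held the 1326 bp peak at 78734545, with a support of 8, the widest MM.1S-only peak of the locus. The last was a single peak, chr16:78796211-78796701, with a support of 8, beside the start site of the GENCODE gene ENSG00000286894. On a fixed 100 kb grid, which cuts the chromosome at slightly different places from the locus bins, MM.1S had at least 11 more peaks than RPMI8226 in 6 of 24101 bins that held a peak, or 0.0249%. The bin was picked for this difference, so nothing is read from that share. The other bins included one on chromosome 22 with 17 MM.1S peaks and 0 RPMI8226 peaks, which holds IGLL5 and 13 immunoglobulin genes, and one at CCDC88C on chromosome 14 with 24 and 10.

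**Figure D1:**
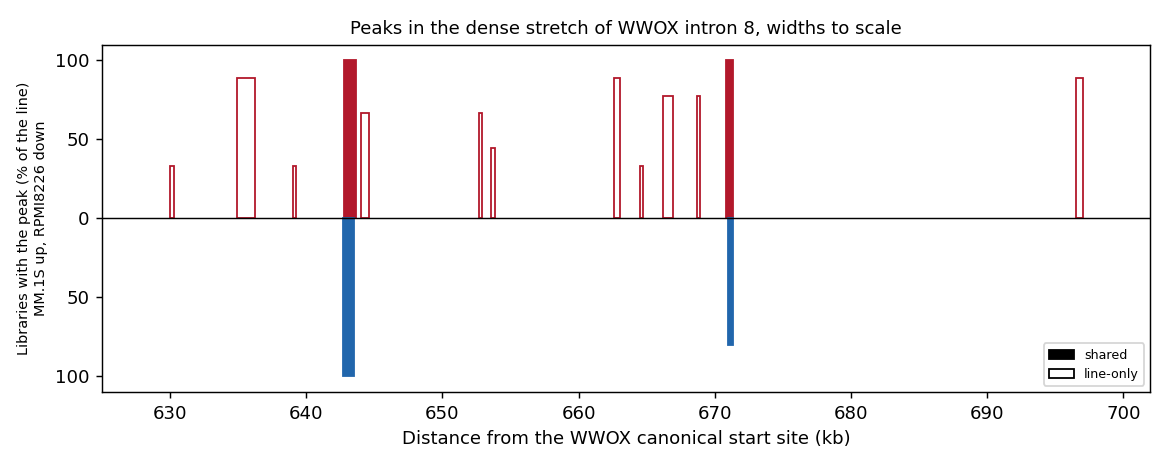
Peaks of the dense stretch of WWOX intron 8, the 100 kb bin with 13 MM.1S peaks, by distance from the WWOX canonical start site in kb, widths to scale. Bar height is support as a percent of the line's libraries, MM.1S up in red and RPMI8226 down in blue, filled for peaks that overlap the other list and open for those that do not. Of the 13 MM.1S peaks 11 are open, and both RPMI8226 peaks are filled.

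Elsewhere in intron 8, MM.1S had 7 peaks and RPMI8226 had 12, and 6 of each overlapped. A pair at 858 kb from the WWOX start was present in every library of both lines, 624 bp wide in MM.1S and 648 bp in RPMI8226, and held the NF-kB letters GGGANTTTC. The pair at 909 kb was 733 bp and 604 bp wide and also present in every library. The centre of its MM.1S peak held the 3 E-box matches shown above, and that of its RPMI8226 peak held these and others. The MM.1S peak without a counterpart was chr16:79042892-79043246, with a support of 9 of 9. RPMI8226 had 6 in the whole intron, of which 4 were present in all 5 libraries. Of these 4, the peak at chr16:78564024-78564370 carried the MARE match, while chr16:78930532-78930971 and chr16:78955188-78955490 formed a RPMI8226-only run of 2 peaks over 25.0 kb. Other RPMI8226-only runs of the locus also held 2 peaks, over shorter spans, and none held more. A RPMI8226-only peak at chr16:79008160-79008349, with a support of 4, lay only 141 bp from the MM.1S peak of the 909 kb pair, so that its status depends on where the peak edges were drawn.

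WWOX was compared with other long genes because peak number follows length. Its body held 1.98 peaks per 100 kb in MM.1S, rank 83 from the highest among 323 protein-coding genes of at least 500 kb, and 1.44 per 100 kb in RPMI8226, rank 143. The medians of these genes were 1.29 and 1.25. Without the dense bin the WWOX values were 0.888 with 9 peaks in MM.1S and 1.38 with 14 peaks in RPMI8226, so the order of the lines turned. The bin was picked for its excess of MM.1S peaks, so nothing is read from this turn. Of the other large fragile site genes, IMMP2L was denser than WWOX in both lists, at 2.33 and 2.67 per 100 kb, while DMD, at 0.268 in each, was sparse. All 8 fragile site genes read here, WWOX included, had a promoter peak in every MM.1S library, and 7 had one in every RPMI8226 library, LRP1B having none there. Over all protein-coding genes the shares were 69.3% and 66.6%, so most genes had such a peak.

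**Figure D2:**
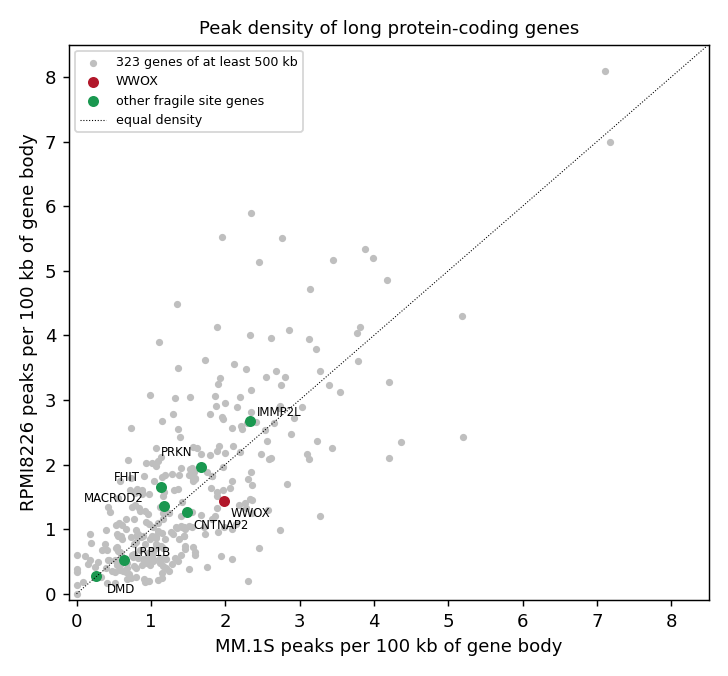
Peaks per 100 kb of gene body in MM.1S (horizontal axis) and RPMI8226 (vertical axis) for the 323 protein-coding genes of at least 500 kb. WWOX, in red at 1.98 and 1.44, sits below the dotted line of equal density, and the other fragile site genes, in green, lie on both sides of it.

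The space between the genes, 373.2 kb, held 7 MM.1S and 9 RPMI8226 peaks, and 6 of each overlapped. The pair at chr16:79287036-79287523 in MM.1S, with the ETS-IRF and E-box matches shown above, was present in every library of both lines, and the pair at chr16:79283651-79284006 was too. The MM.1S-only peak, chr16:79278531-79278904, was present in 9 of 9 libraries and lay 4756 bp from the nearest RPMI8226 peak. Of the RPMI8226-only peaks, chr16:79261555-79261907 and chr16:79466079-79466429 had a support of 5 and chr16:79269595-79269762 had a support of 3. The pair nearest to the 3' end of MAF, 81.0 kb downstream of its start, was unequal in support, at 3 of 9 with 324 bp in MM.1S and 5 of 5 with 675 bp in RPMI8226.

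The MAF start was open in every library of both lines, and over a longer stretch in MM.1S. The MM.1S peak, chr16:79599701-79601545, was 1845 bp wide, the widest of the locus and at the 99.0 percentile of its list, and covered all 3 annotated MAF start sites. The RPMI8226 peak, chr16:79600459-79600972, was 514 bp wide, at the 72.5 percentile, covered 2 start sites and lay wholly inside the MM.1S peak. The CRE match of the printed promoter was inside both peaks. Percentiles are given because the lists differ in width, with medians of 536 bp in MM.1S and 362 bp in RPMI8226. A second pair 1.72 kb upstream of the start had lower support, with a support of 6 of 9 at 338 bp in MM.1S and 3 of 5 at 292 bp in RPMI8226. Both peaks of this pair, and the 1845 bp MM.1S peak, also lie within 2500 bp of a start site of the GENCODE gene ENSG00000277214. MM.1S had a further promoter peak in exon 1, chr16:79598742-79599081, with a support of 3 of 9 and no counterpart.

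Within the MAF body, but outside the canonical transcript, both lines had a broad peak 10.4 kb (MM.1S) and 10.3 kb (RPMI8226) downstream of the start. It was 1172 bp wide in MM.1S, chr16:79589796-79590967, at the 91.0 percentile but with a support of only 6 of 9. In RPMI8226, chr16:79589776-79591036, it was 1261 bp wide, the widest of that list in the locus, at the 98.4 percentile, with a support of 5 of 5. The whole MM.1S peak lay inside the RPMI8226 one. Unlike at the start, the RPMI8226 peak was thus the wider of the pair.

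Upstream of MAF the lists shared 2 elements that were present in every library, and RPMI8226 had 4 more. The pair 27.9 kb upstream, 675 bp wide in MM.1S and 656 bp in RPMI8226, carries the 2 AP-1 matches and the RUNX match shown above. The pair at 39.2 kb was 508 bp and 437 bp wide and held a RUNX match. The RPMI8226-only peaks lay 7.11 kb, 9.25 kb, 57.7 kb and 71.9 kb upstream, were 309, 385, 290 and 454 bp wide, and each had a support of 5 of 5. The first overlaps the promoter window of ENSG00000278058, and it and the one at 57.7 kb held an AP-1 match. MM.1S had no peak in the 100 kb upstream of MAF other than the pairs. The MAF side, the gene with that flank, therefore held 6 MM.1S and 9 RPMI8226 peaks, with 5 shared in each.

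**Figure D3:**
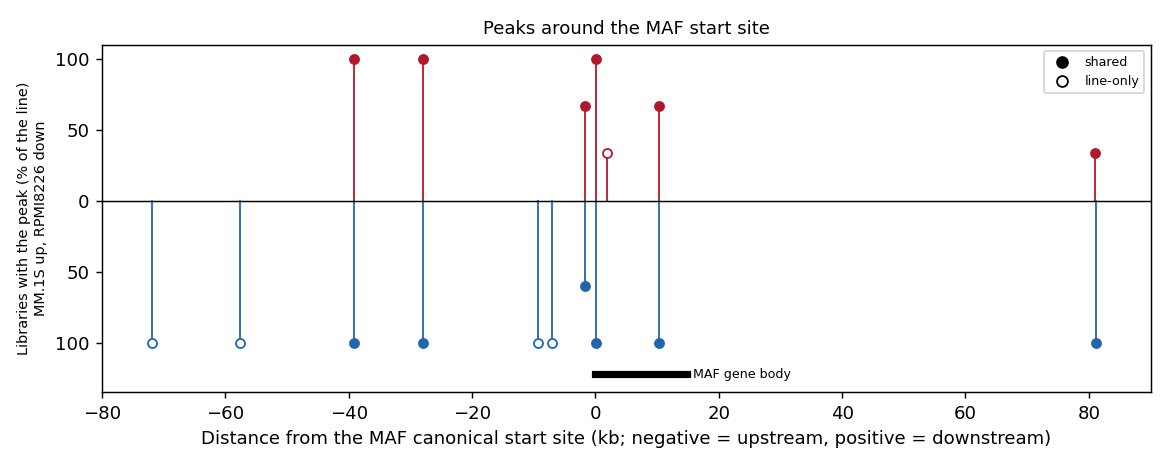
Peaks by distance from the MAF canonical start site in kb, negative values upstream, with support as a percent of the line's libraries, MM.1S up in red and RPMI8226 down in blue. Filled points overlap a peak of the other list and open points do not, and the 4 open RPMI8226 points upstream of MAF are all at 5 of 5 libraries.

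Beyond the other end of the locus, left of WWOX, the lists shared 1 peak 96.5 kb upstream of the WWOX start, present in every library of both lines, with a CTCF match. CTCF is the DNA-binding protein that marks many loop anchors and domain borders. RPMI8226 also had a peak 65.2 kb upstream of the WWOX start, chr16:78034108-78034802, 695 bp wide with a support of 5 and no counterpart. The only other CTCF match of the locus was in the shared pair at 671 kb from the WWOX start, inside the dense stretch of intron 8. Each list thus had 2 locus peaks with a CTCF match out of 36, or 5.56% (1.54 to 18.1). Over the whole list, 3.74% of MM.1S peaks and 3.00% of RPMI8226 peaks held one. The interval holds each of these values, so nothing is read from the matches. The letters searched for CTCF are not given here.

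**Figure D4:**
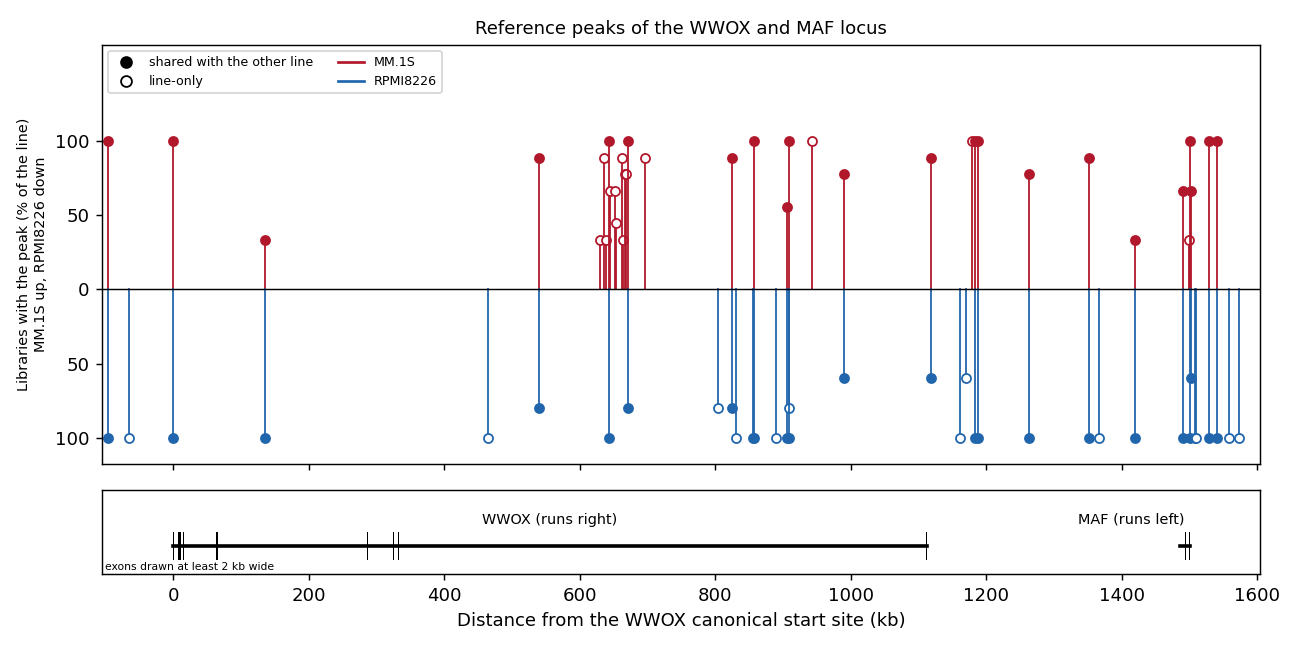
All 72 peaks of the locus by distance from the WWOX canonical start site in kb, with support as a percent of the line's libraries, MM.1S up in red and RPMI8226 down in blue, above the exons of WWOX and MAF. Filled points overlap a peak of the other list, and 11 of the 14 open MM.1S points lie between 630 and 697 kb, while the open RPMI8226 points are spread along the locus.

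Over the whole locus, peaks were as dense in both lists, at 21.2 per Mb, below the 27.5 (MM.1S) and 30.8 (RPMI8226) of chromosome 16. Chromosomes 1 to 22, X and Y together were closer, at 23.6 and 25.9 per Mb. In each list 22 of 36 peaks, 61.1% (44.9 to 75.2), overlapped a peak of the other line by at least 1 bp, against 64.6% of all MM.1S and 62.0% of all RPMI8226 peaks. Outside promoters the shares were 18 of 30 in MM.1S, 60.0% (42.3 to 75.4) against 60.0% of distal peaks, and 18 of 31 in RPMI8226, 58.1% (40.8 to 73.6) against 53.7%. These shares lie within counting error of the background. Without the dense bin, a choice made after seeing the data, 20 of 23 MM.1S peaks, 87.0% (67.9 to 95.5), and 20 of 34 RPMI8226 peaks, 58.8% (42.2 to 73.6), were shared. The higher MM.1S share follows from the choice, since 11 of the 13 MM.1S peaks left out were line-only.

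Within the 22 pairs, the midpoints differed by 5 to 121 bp with a median of 54.0 bp. MM.1S peaks were the wider in 15 pairs and RPMI8226 peaks in 7, and the median widths were 466 and 416 bp. Over the whole lists, shared peaks had median widths of 607 bp in MM.1S and 421 bp in RPMI8226. How many pairs were wider in MM.1S was not counted there. In 10 pairs, 8 of them distal, the peak was present in every library of both lines, which is 27.8% of either list's 36 peaks, against 37.4% of all MM.1S and 35.6% of all RPMI8226 peaks.

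The share of peaks present in every library was below the background in MM.1S and above it in RPMI8226, in each case within the counting interval. In MM.1S, 13 of 36 peaks, 36.1% (22.5 to 52.4), were present in every library, against 52.0% of the list, and 6 had the minimum of 3, 16.7% against 8.64%. In RPMI8226, 27 of 36, 75.0% (58.9 to 86.2), were present in every library, against 64.1%. A support above 6 in MM.1S cannot arise without a library of each culture condition, and 24 peaks had one, 66.7% (50.3 to 79.8) against 72.3%. Of 14 line-only peaks in each list, 2 in MM.1S, 14.3% (4.01 to 39.9), and 11 in RPMI8226, 78.6% (52.4 to 92.4), were present in every library, against 27.5% and 43.6% of all line-only peaks. The MM.1S interval holds its background and the RPMI8226 interval does not. Both intervals treat neighbouring peaks as independent, which they are not, and line-only peaks are among several subsets compared here. The higher RPMI8226 share is therefore a description of these peaks and not a test against the list. In MM.1S 11 of the 14 lie in the dense bin, none of them in every library, and of the 3 others 2 were. For shared peaks the counts were 11 and 16 of 22, against 65.4% and 76.7%. The maximum is 9 libraries in one line and 5 in the other, so complete support is harder to reach in MM.1S and the lines cannot be compared directly on it. In the study's read totals, a MM.1S MONO library also lies far below the other MM.1S libraries. Its part in complete support was not tested.

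**Figure D5:**
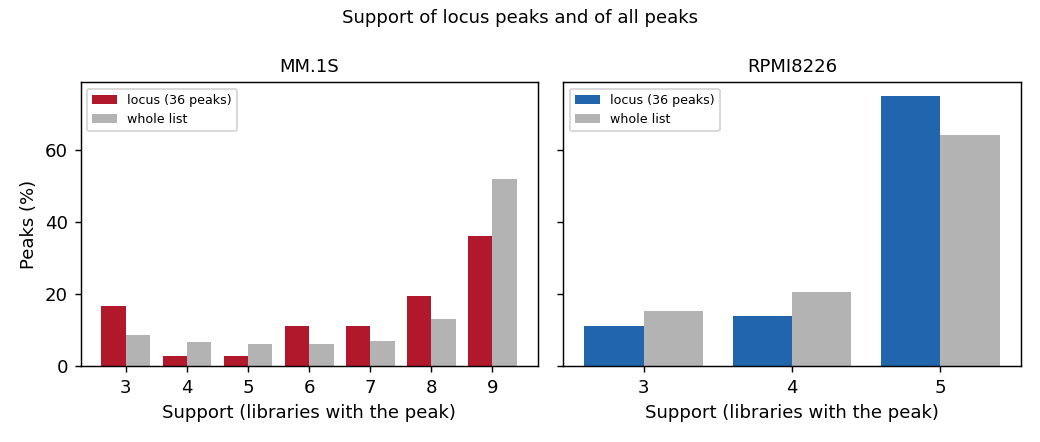
Percent of peaks at each support value, in libraries with the peak, for the 36 locus peaks (coloured) and the whole list (grey) of each line. At the highest support the locus bar is below the grey bar in MM.1S, 36.1% against 52.0%, and above it in RPMI8226, 75.0% against 64.1%.

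Motif letters were sought in the central 200 bp of every peak, for 12 motifs, and a match is a description of the sequence only. AP-1, the site of JUN and FOS proteins, was found in 2 MM.1S peaks, 5.56% (1.54 to 18.1) against 9.97% of the list, and in 7 RPMI8226 peaks, 19.4% (9.75 to 35.0) against 17.7%. Of the 7, 1 was in a shared peak, and with whole peaks scanned 5 of 11 were. Over the whole list, AP-1 matches were not counted by sharing. The E-box, bound by basic helix-loop-helix and zinc finger proteins, was found in 12 MM.1S peaks, 33.3% (20.2 to 49.7) against 26.8%. In RPMI8226 it was found in 14 peaks, 38.9% (24.8 to 55.1) against 26.4%. These peaks were spread over shared and line-only ones (6 and 6, 7 and 7). RUNX matches were in 4 MM.1S peaks, all shared, 11.1% (4.41 to 25.3) against 8.39%. In RPMI8226 they were in 6 peaks, 5 of them shared, 16.7% (7.87 to 31.9) against 8.98%. The AP-1, E-box and RUNX intervals all hold the list share. NF-kB letters were in 2 MM.1S peaks, 5.56% (1.54 to 18.1) against 1.17%. In RPMI8226 they were in 1 peak, 2.78% (0.492 to 14.2) against 1.42%. CRE letters were in 1 RPMI8226 peak, 2.78% (0.492 to 14.2) against 0.454%, and in 0 MM.1S peaks. The MM.1S NF-kB and RPMI8226 CRE intervals lie above the list share, but with whole peaks scanned they hold it. They rest on 2 peaks and 1 peak among 12 motifs, so nothing is read from them. Each list had 1 peak that matched the MARE letters of the AP-1 type, both line-only peaks of intron 8, against 1.84% and 2.27% of the lists. With whole peaks scanned each list had 2, 1 of them shared. None matched the CRE type (TGCTGACGT). STAT3 letters (TTCCNGGAA) were in no locus peak, against 0.593% and 0.633% of the lists, so few or none would be found in 36 peaks at the list share. In all, 16 MM.1S and 10 RPMI8226 peaks held none of the 12. The peaks' central GC content had a median of 50.2% in each line, near the list medians of 51.5% and 50.5%.

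The promoters of related genes were read from lists chosen for MM. The 6 genes of the MAF family read here (MAF, MAFA, NRL, MAFF, MAFG and MAFK) all had a promoter peak in every MM.1S library. In RPMI8226, MAFK had one with a support of 4, and the other 5 had one in every library. CCND2, a cyclin, ITGB7, an integrin chain, and CCR1, a chemokine receptor, all had one in every library of both lines. Of 4 genes that are recurrent partners of immunoglobulin translocations in MM, CCND1, CCND3 and NSD2 had one in every library of both lines, while FGFR3 had one in MM.1S only. These counts stand beside the 69.3% and 66.6% of protein-coding genes given above and describe open promoters, not expression.

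The lists were checked against cell type markers. All 8 plasma cell genes, such as SDC1, IRF4 and PRDM1, had a promoter peak in both lines, in every library of MM.1S and for 7 of 8 in RPMI8226. Over all protein-coding genes, 76.8% (MM.1S) and 71.9% (RPMI8226) had a promoter peak, and 69.3% and 66.6% had one in every library. Of 5 B cell genes, 4 had one in MM.1S and 3 in RPMI8226. PAX5 and BCL6 had one in every library of both lines, and MS4A1, which encodes CD20, had none in either. Of 10 stromal genes, 5 and 4 had one, in every library for 3 and 2. COL1A1 and PDGFRB had one in every library of both lines, and TWIST1 had one in every MM.1S library. COL3A1, LUM, POSTN, THY1 and FAP had none in either line. The study reported that a few HS5 cells remained among the sorted lower chamber cells, and their part in the locus peaks was not tested.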

How the data were processed

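Omni-ATAC libraries were assigned to a line and a culture condition by their titles. According to the methods of the study, reads were aligned by the authors to hg38 with Bowtie2. They left out reads with several positions, kept 1 read per position, and called peaks per library with MACS3. Tool versions, the peak threshold and the joining of peak edges are not given in the sources used here. The deposited lists give chromosome, start, end and an unnamed whole number, taken as support because it runs from the authors' minimum of 3 to the number of libraries. This unit is other than reads, and the authors did not normalize it. Starts were read as counted from 0 and are printed counted from 1, which would be off by 1 base if that reading is wrong. Depth per sample is listed by the study but is not in the lists and was not used, so no interval here covers it, and the planned edgeR tests between culture conditions were not run.

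Gene positions came from GENCODE release 44 and promoter sequences from RefSeq (GRCh38.p14). Shared peaks overlapped by at least 1 bp, and motifs were exact letter matches on either strand. The peaks named were the promoter peaks of MAF and WWOX, the 3 widest peaks and 3 longest line-only runs per list, the 5 widest distal pairs present in every library of both lines, the distal peaks nearest to the MAF start, the longest empty stretches and peaks with a MARE. Runs were ranked by number of peaks, with ties taken from the left. Other peaks and the dense bin were named after their values were seen. The members and the gene lists were chosen with earlier results of these data known, and some items of these lists are not reported here. Alternatives covered the flank, overlap, support, width, promoter window, gene assignment and motif window. Scripts ran in python 3.11.15 with numpy 2.4.6, scipy 1.17.1 and matplotlib 3.10.9 and were tested on simulated data.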

Additional observations from a re-analysis of the deposited data

How the results depend on the processing

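Of 100 alternatives, 81 left a value within its counting interval or within 1.5 times its count. With only the peaks present in every library, MM.1S kept 13 peaks (7.64 per Mb, median width 508 bp), of which 84.6% were shared (81.3% of all such MM.1S peaks), with 7 on the WWOX side, 3 in the space between and 3 on the MAF side. With only the peaks at least as wide as the list median, MM.1S kept 10 peaks, 60.0% of them in every library, and RPMI8226 kept 17, 94.1% of them in every library. The same share was not counted over all peaks of that width in the lists, so nothing is read from these values. Without the dense bin of WWOX intron 8, chosen after seeing the data, MM.1S kept 23 peaks, 87.0% of them shared. Assigning peaks to the nearer start site gave the MAF side 19 MM.1S and 28 RPMI8226 peaks and the WWOX side 8 RPMI8226 peaks. Scanning whole peaks raised the MM.1S share with an AP-1 match to 22.2% (11.7 to 38.1), against 21.6% of the list. For the E-box it rose to 50.0% (34.5 to 65.5), against 53.9%, so that the E-box share went from above the list to below it. A promoter window of 1000 bp left MAF 1 RPMI8226 promoter peak. The fewer peaks under a stricter choice follow from it. So does the higher shared share of MM.1S without the dense bin, where 11 of the 13 MM.1S peaks were line-only. The counts by nearer start site follow from that rule of assignment. The cause of the other shifts was not tested. No paired analysis was possible because each list pools all libraries of its line and has no column per library, and leaving out a library in turn was not run for the same reason. Culture conditions, accessibility levels, breakpoints and copy number were not analysed here.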
